A study of Homo sapiens with 6 samples.

Results

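Homologous recombination and Fanconi repair genes were followed in 6 RNA sequencing libraries of hiPSC-CMs, which are cardiomyocytes grown from pluripotent stem cells. The genes were taken from a list of 39 symbols covering homologous recombination, the Fanconi anaemia pathway and the checkpoint kinases, without RAD54B, and all 39 were found among the 21134 genes of the series. Of these 39 genes, MRE11A and SHFM1 stand in the files under older symbols of MRE11 and SEM1. All 39 passed the filter on low counts and were tested among 14926 genes.

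The study exposed hiPSC-CMs to alcohol as a model of alcoholic cardiomyopathy, and added losartan, a blocker of the angiotensin II type 1 receptor, to see whether blocking this receptor alters the response. The 3 groups were control cells that received neither agent, cells that spent 24 h in 100 mM alcohol (alcohol), and cells that spent 24 h in 100 mM alcohol to which losartan had been added at 1 μM (co-treated), each with 2 libraries. The labels name the cell line as H9, which is an established line of human embryonic stem cells although the cells are called induced pluripotent, so every group comes from 1 line. None of the 6 libraries received losartan without alcohol, and no number of hours is given for the control libraries. The labels do not say whether the 2 repeats of a group came from separate cultures, and the p-values below therefore measure only the spread between these libraries, which may be technical.

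Homologous recombination repairs a double-strand break by copying the intact sister chromatid, so it works mainly in cells that have replicated their DNA. The break ends are cut back, the single strand is coated by RPA, strand exchange follows with the help of BRCA2 and its partners, and the joined molecules are resolved by helicases and nucleases. The Fanconi pathway uses the same machinery at DNA crosslinks, including those formed by acetaldehyde, the first product of alcohol oxidation, and its central step is the ubiquitination of the FANCD2-FANCI pair by a core complex. Most cardiomyocytes leave the cell cycle as they mature, and many genes of both pathways are known to be transcribed mainly in cycling cells.

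The expected counts, which are the authors' estimates of the reads of each gene, summed to between 4898287 and 5051448 per library, and 3 counts corresponded to 0.594 to 0.612 CPM, a count scaled to library size. Replicates correlated at 0.975 to 0.978 across genes, which are not independent replicates, and no replicate pair matched within sampling noise. All 12 cardiomyocyte markers were detected in every library, with a summed level of 26406 to 27036 FPKM in control, 19840 to 26348 in alcohol and 22668 to 24755 in co-treated libraries. FPKM are counts scaled to the length of the transcript in kilobases and to the reads of the library, and levels of different genes are compared on this scale alone. The 6 smooth muscle markers summed to 1708 to 1953 FPKM in control, 734.4 to 1475 in alcohol and 1012 to 1053 in co-treated libraries, none of them at 0. Fibroblast markers summed to 421.1 to 518.1 FPKM, while pluripotent stem cell markers summed to 15.5 to 24.0, endothelial markers to 6.23 to 10.9 and endoderm and hepatocyte markers to 37.2 to 50.1 over the 6 libraries, with SOX2, VWF, SOX17, FOXA2 and HNF4A at 0 in 1 or more of them. In bulk samples, fewer cells of a type and less RNA per cell cannot be told apart.

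The repair genes were expressed at low to moderate levels in control hiPSC-CMs. Their median level in control was 6.33 FPKM against 8.02 FPKM over all genes tested, and 27 of the 39 were below that background. SHFM1, a small protein that binds BRCA2 and is also a subunit of the proteasome, stood highest with 75.0 and 94.6 FPKM in the control libraries. RPA2 followed at 42.4 and 38.6 FPKM and RPA1 at 21.5 and 22.1 FPKM, both subunits of the RPA complex that coats single-stranded DNA wherever it is replicated or repaired. FANCL, the ubiquitin ligase of the Fanconi core complex, and FANCI came next with mean levels in control of 20.4 ± 2.31 and 19.7 ± 3.64 FPKM (SD, n = 2).

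At the lower end of this order, BRCA1 had a mean level in control of 3.37 FPKM, FANCM 3.04 FPKM, BLM 2.73 FPKM, BRCA2 2.09 FPKM, RAD51B 2.05 FPKM and FANCB 0.82 FPKM. Of the 38 pairs of neighbours in the order, 30 overlapped between their control libraries and so did not differ beyond their spread. The neighbours that were separated were SHFM1 above RPA2, RPA2 above RPA1, MUS81 above RAD50, RAD50 above ATM, ATM above XRCC2, NBN above CHEK2, BRCA1 above FANCM and RAD51B above FANCB. In counts the genes ranged from 3 to 955 per library with a median of 108.8, and 17 of them averaged under 100 counts, so their values carried more counting error than those of the others.

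**Figure D1:**
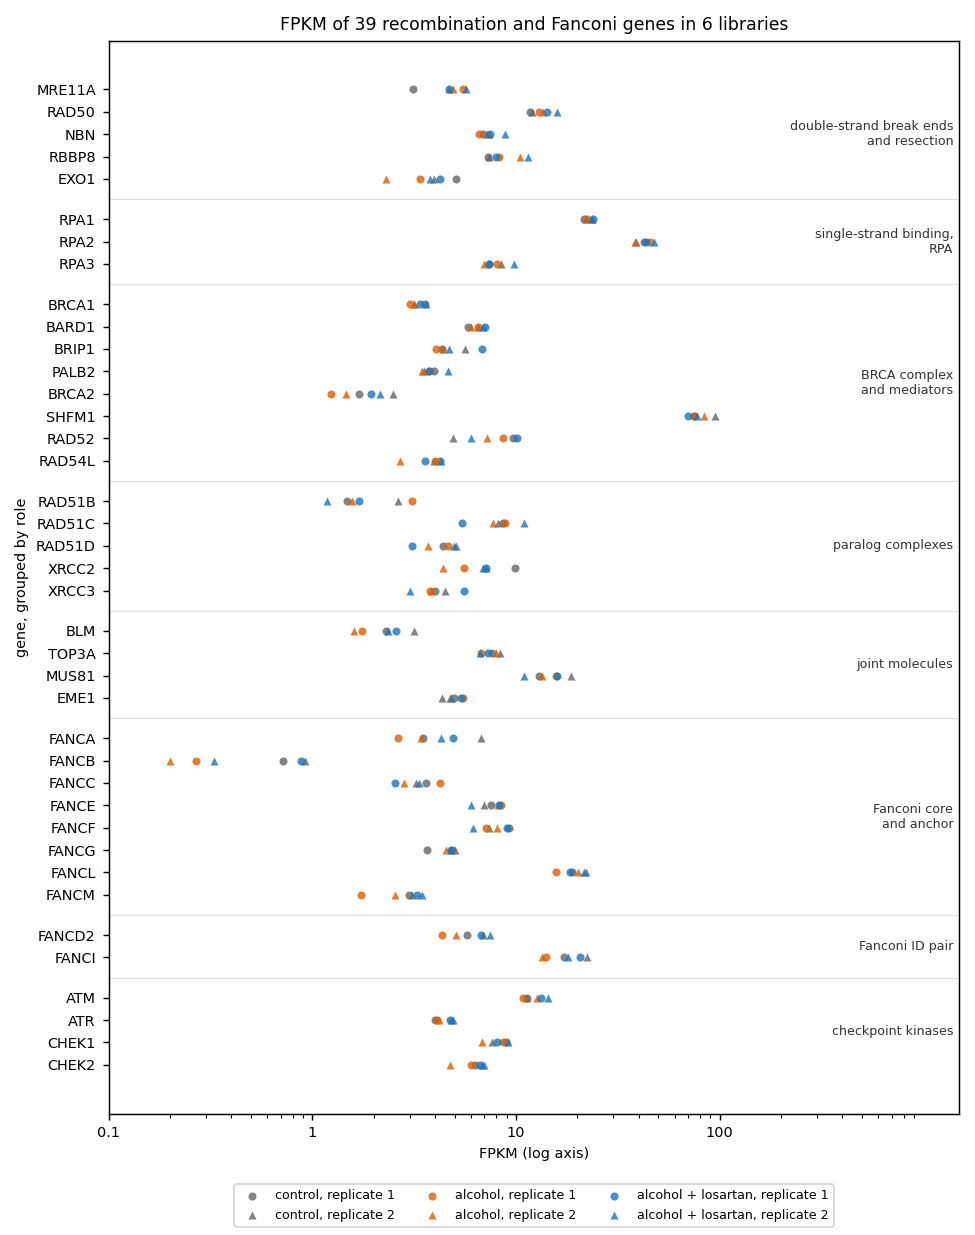
FPKM on a log axis of the 39 repair genes, grouped by role, with 1 point for each library (circles replicate 1, triangles replicate 2; grey control, orange alcohol, blue alcohol with losartan). SHFM1 and the RPA subunits RPA1 and RPA2 lie to the right, FANCB lies alone at the left with the alcohol libraries at 0.27 and 0.20 FPKM, and for most genes the 3 colours are mixed.

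Alcohol was compared with control to ask which repair genes differ after 24 h of exposure. In edgeR's quasi-likelihood test with Benjamini-Hochberg adjustment over all genes, 0 of the 39 repair genes passed an adjusted p of 0.05, where the background was 0.0670% of all genes tested, and DESeq2 and limma also called 0 of the 39. At an unadjusted p under 0.05, 8 genes were lower with alcohol and 0 were higher, against a background of 5.78% lower and 5.27% higher. These 8 were FANCD2 and FANCI, FANCA and FANCB of the core complex, BRCA2, XRCC2, BLM and EXO1. The median log2 fold change (a doubling is 1) of the 39 genes was -0.14, with 29 of them below 0, and the median over all genes tested was -0.0033.

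The count of lower genes rests on few libraries. It was 2 without replicate 2 of control, where EXO1 and XRCC2 were left and MRE11A passed the same limit as higher, and 5 without replicate 1 of alcohol, while DESeq2 gave 5 and limma gave 5. BLM and FANCI were lost without replicate 2 of control and XRCC2 without replicate 1 of control, each in that 1 fit. FANCD2 was lost with DESeq2, with limma, without replicate 2 of control and without replicate 1 of alcohol, and BRCA2 and FANCA in the last 2 of these and with limma. EXO1 was lost with DESeq2, without replicate 1 of control and without replicate 2 of alcohol, and FANCB with DESeq2, without replicate 2 of control and without either alcohol library. The median was -0.22 without replicate 1 of control and -0.065 without replicate 2 of alcohol. In CPM scaled by the TMM normalization, both alcohol libraries lay below both control libraries for 14 of the 39 genes and above them for 5, against 21.8% and 22.0% of all genes.

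**Figure D2:**
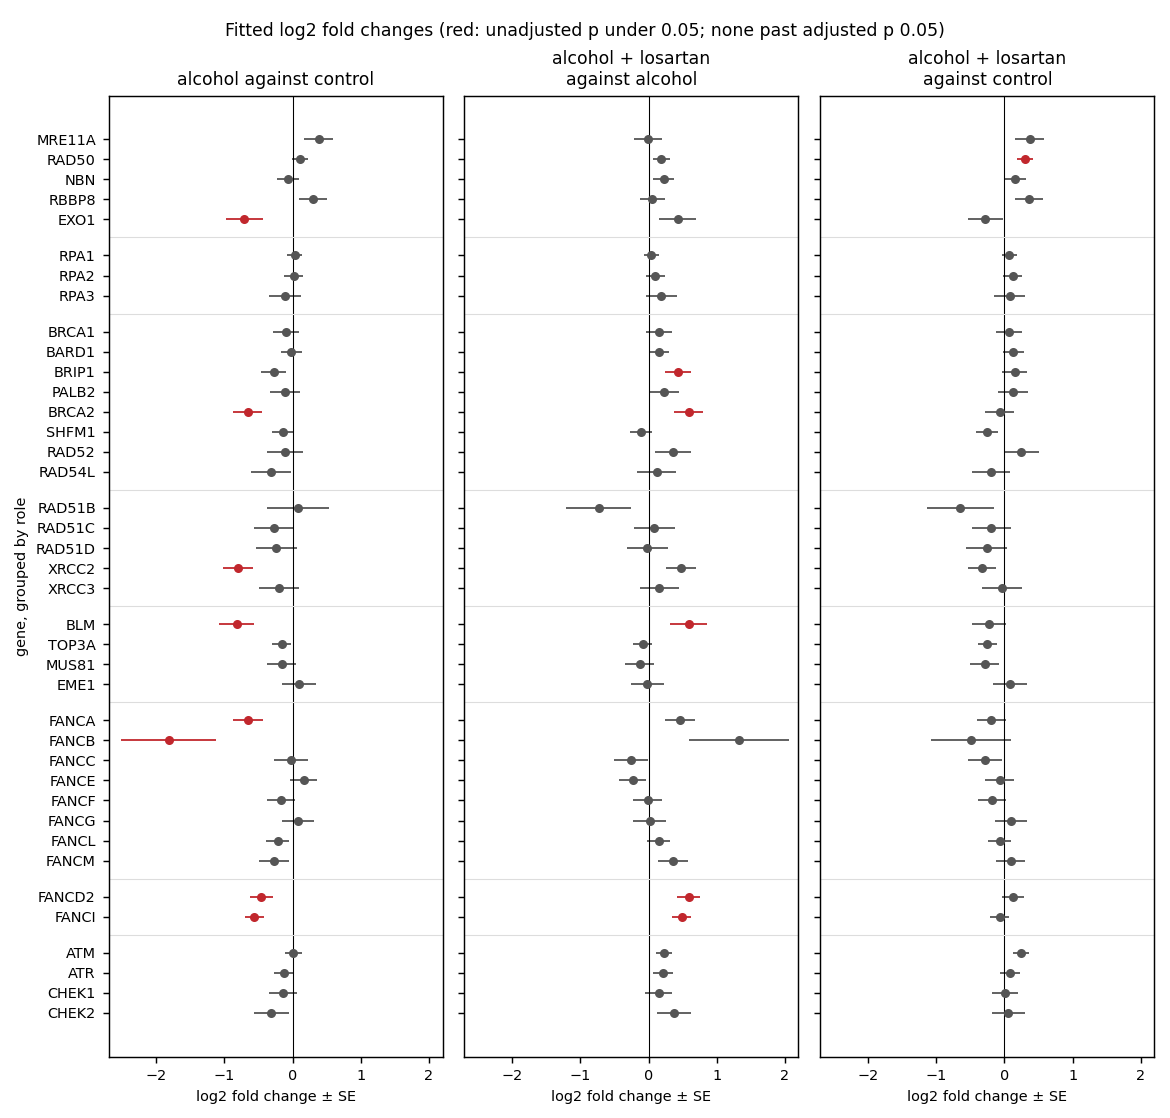
Fitted log2 fold changes of the 39 repair genes with their standard errors (bars) in the 3 comparisons, where points left of the line are lower in the group named first. Red marks an unadjusted p under 0.05, which 8 genes had below 0 in the first panel, 5 genes above 0 in the middle one and RAD50 in the last, and no gene passed the adjusted threshold. The first 2 panels share the alcohol libraries, and the first and last share the control libraries.

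The FANCD2-FANCI pair, which is loaded on DNA at a crosslink and ubiquitinated there, is described first. FANCI (gene 55215, chr15:89243979-89317259 in GRCh38) had 17.1 and 22.3 FPKM in control, 14.0 and 13.4 in alcohol and 20.7 and 18.0 in co-treated libraries. Both alcohol libraries lay below the other 4, and control and co-treated libraries overlapped. The log2 fold change of FANCI in alcohol against control was -0.56 (SE 0.14, unadjusted p = 0.00178, adjusted p = 0.167).

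FANCD2 (gene 2177, chr3:10026437-10101932) had 5.74 and 6.91 FPKM in control, 4.34 and 5.09 in alcohol and 6.75 and 7.45 in co-treated libraries. Again the alcohol libraries were the lowest of the 6, with a log2 fold change against control of -0.46 (SE 0.17, unadjusted p = 0.0158, adjusted p = 0.320). FANCI shares exon sequence with POLG, and FANCD2 with FANCD2OS, each on the opposite strand. Whether the counting used strand is not given in the sources used here, so reads of such partners cannot be told apart. Of the 39 genes 17 had a partner on the opposite strand, and 4 others, BRCA1, RAD52, RAD51D and CHEK1, had partners on their own strand alone. FANCA, with ZNF276, and MRE11A, with ANKRD49, were among the 17, while BRCA2, BLM, XRCC2, EXO1 and FANCB had no partner.

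Among the 8 genes of the Fanconi core complex and its anchor FANCM, which recognise the crosslink and carry the ubiquitin ligase, FANCA and FANCB were at an unadjusted p under 0.05. FANCA (chr16:89737549-89816647) had 3.50 and 6.75 FPKM in control, 2.64 and 3.43 in alcohol and 4.88 and 4.29 in co-treated libraries. The authors' transcript length for FANCA differed up to 1.33-fold between libraries, and in counts, which carry no length, the gene had 94 and 136 in control, 69 and 79 in alcohol and 107 and 97 in co-treated libraries. Its log2 fold change in alcohol against control was -0.65 (SE 0.22, unadjusted p = 0.00951, adjusted p = 0.270).

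FANCB, an X-linked subunit of the core complex, was the gene with the fewest reads. Its counts were 11 and 14 in control, 4 and 3 in alcohol and 13 and 5 in co-treated libraries. The summed counts of alcohol were 0.284 of those of control after scaling to depth, with an exact 95% interval of 0.104 to 0.675 that covers counting error only. The fitted log2 fold change was -1.82 (SE 0.70, adjusted p = 0.347), and at these counts it depends on the fit. The other 6 genes of this group, FANCC, FANCE, FANCF, FANCG, FANCL and FANCM, had log2 fold changes between -0.27 and 0.16.

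BRCA2 is the mediator that readies the single strand for strand exchange. BRCA2 (chr13:32315077-32400268) had 1.69 and 2.49 FPKM in control, 1.23 and 1.47 in alcohol and 1.95 and 2.15 in co-treated libraries. Both alcohol libraries were below the other 4, and the log2 fold change against control was -0.66 (SE 0.21, unadjusted p = 0.00864, adjusted p = 0.262). Its partner PALB2, which brings BRCA2 to BRCA1, had 3.96 and 3.54 FPKM in control, 3.72 and 3.44 in alcohol and 3.74 and 4.66 in co-treated libraries, with overlapping groups and a log2 fold change of -0.11 (SE 0.22).

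BRCA1, the ubiquitin ligase that promotes resection of the break, had 3.57 and 3.16 FPKM in control, 3.00 and 3.17 in alcohol and 3.39 and 3.62 in co-treated libraries. Its log2 fold change in alcohol against control was -0.092 (SE 0.19), and its groups overlapped in CPM. SHFM1 had 75.0 and 94.6 FPKM in control, 75.0 and 83.6 in alcohol and 69.7 and 77.4 in co-treated libraries, also with overlapping control and alcohol groups. BRIP1, a helicase that binds BRCA1, had 4.33 and 5.63 FPKM in control, 4.04 and 4.37 in alcohol and 6.79 and 4.67 in co-treated libraries. All 8 genes of the BRCA complex and mediators, with BARD1, RAD52 and RAD54L, had log2 fold changes below 0 against control, with a median of -0.12, and of these 8 BRCA2 was the 1 gene at an unadjusted p under 0.05.

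RAD51B, RAD51C, RAD51D, XRCC2 and XRCC3 are paralogs of each other that form small complexes acting in strand exchange, and of these 5 XRCC2 (chr7:152644776-152676141) was the 1 gene at an unadjusted p under 0.05. XRCC2 had 9.84 and 7.09 FPKM in control, 5.55 and 4.37 in alcohol and 7.08 and 6.87 in co-treated libraries. Both alcohol libraries were below the other 4, and the log2 fold change in alcohol against control was -0.80 (SE 0.22, unadjusted p = 0.00285, adjusted p = 0.179). RAD51C had 8.66 and 8.11 FPKM in control, 8.84 and 7.71 in alcohol and 5.41 and 10.9 in co-treated libraries. Its 2 co-treated libraries lay on either side of the other 4. The authors' transcript length for RAD51C differed up to 1.25-fold between libraries. In counts it had 56 and 54 in control, 47 and 45 in alcohol and 35 and 63 in co-treated libraries. In CPM both alcohol libraries lay below both control libraries. With RAD51B, RAD51D and XRCC3, the log2 fold changes of the other 4 paralogs in alcohol against control ran from -0.28 to 0.078.

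Of the genes that work on joint molecules, BLM (chr15:90717346-90816166), the helicase that is mutated in Bloom syndrome and dissolves crossed-over DNA, had 2.29 and 3.17 FPKM in control, 1.75 and 1.60 in alcohol and 2.58 and 2.34 in co-treated libraries. The alcohol libraries were the 2 lowest of the 6, and the log2 fold change of BLM was -0.82 (SE 0.26, unadjusted p = 0.00787, adjusted p = 0.254). Its partner TOP3A and the nuclease subunits MUS81 and EME1 had log2 fold changes of -0.16, -0.16 and 0.094.

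The genes that recognise and cut back break ends did not share 1 direction. EXO1 (chr1:241847986-241889939), the exonuclease of long-range resection, had 5.09 and 3.94 FPKM in control, 3.39 and 2.29 in alcohol and 4.21 and 3.76 in co-treated libraries, and its log2 fold change was -0.71 (SE 0.27, unadjusted p = 0.0194, adjusted p = 0.338). MRE11A, the nuclease of the MRN complex, had 3.13 and 4.67 FPKM in control, 5.49 and 4.91 in alcohol and 4.68 and 5.71 in co-treated libraries. Its alcohol libraries lay above its control libraries, with a log2 fold change of 0.38 (SE 0.21, unadjusted p = 0.0951, adjusted p = 0.549). RAD50, the ATPase of the same complex, had 11.7 and 12 FPKM in control, 12.9 and 13.5 in alcohol and 14.2 and 15.9 in co-treated libraries, which gave a log2 fold change in alcohol of 0.11 (SE 0.12). NBN, the remaining subunit of the complex, was at -0.064 and RBBP8, which starts resection, at 0.30.

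RPA1 varied little, with 21.5 and 22.1 FPKM in control, 22.2 and 23.6 in alcohol and 23.8 and 23.5 in co-treated libraries. The log2 fold changes of RPA1, RPA2 and RPA3 in alcohol against control were 0.033 (SE 0.11), 0.018 (SE 0.14) and -0.11 (SE 0.23). Among the checkpoint kinases, which signal the presence of damage, ATM had 11.3 and 11.3 FPKM in control, 10.8 and 12.6 in alcohol and 13.3 and 14.3 in co-treated libraries. ATR had 3.98 and 4.80 FPKM in control, 4.08 and 4.18 in alcohol and 4.72 and 4.88 in co-treated libraries. For both kinases the control and alcohol libraries overlapped in CPM.

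The kinases that act below them were also without a call. CHEK1 had 8.93 and 7.60 FPKM in control, 8.64 and 6.84 in alcohol and 8.09 and 9.10 in co-treated libraries. CHEK2 had 6.29 and 6.77 FPKM in control, 5.98 and 4.73 in alcohol and 6.66 and 6.99 in co-treated libraries, and both of its alcohol libraries were below the other 4. The log2 fold changes of ATM, ATR, CHEK1 and CHEK2 in alcohol against control were 0.011 (SE 0.12), -0.13 (SE 0.15), -0.14 (SE 0.20) and -0.31 (SE 0.25).

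**Figure D3:**
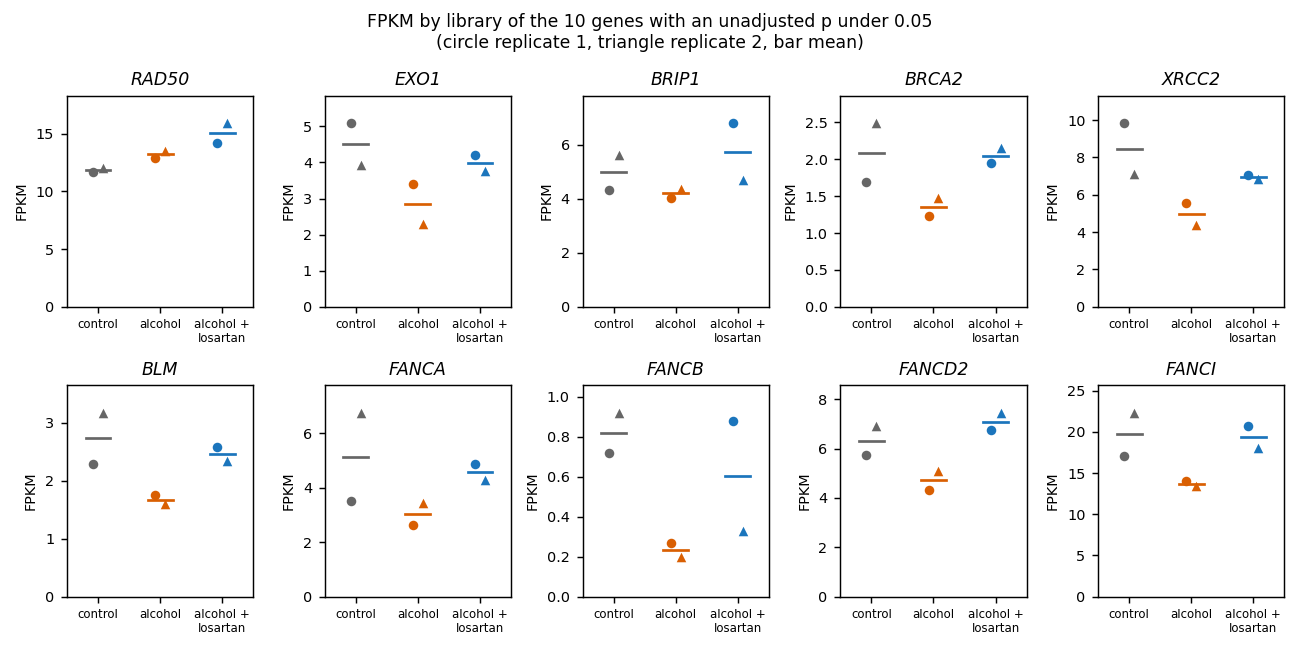
FPKM in each library of the 10 repair genes that had an unadjusted p under 0.05 in any comparison, with circles for replicate 1, triangles for replicate 2 and a bar for the mean of each group, on axes that start at 0. For all but BRIP1 and RAD50 both alcohol libraries lie below the control and the co-treated libraries, RAD50 is highest in the co-treated libraries, and the control libraries of FANCA lie apart at 3.50 and 6.75 FPKM.

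The comparison of co-treated with alcohol libraries asked what losartan added to the exposure. It uses the same alcohol libraries as the comparison above, so a low value in the alcohol libraries enters both, below 0 in the first and above 0 in the second. By edgeR 0 of the 39 genes passed an adjusted p of 0.05, against a background of 0.0134%, and DESeq2 and limma called 0 as well. At an unadjusted p under 0.05, 5 genes were higher in co-treated libraries and 0 were lower, against a background of 2.84% higher and 2.71% lower. These were FANCD2, FANCI, BRCA2, BLM and BRIP1. DESeq2 put 3 genes past this limit, BRCA2, FANCD2 and FANCI. Limma, which was run on FPKM, also put 3 past it, FANCD2, FANCI and FANCM, the last of which is not among the 5. The authors' transcript length for FANCM differed up to 1.28-fold between libraries. In counts FANCM had 63 and 90 in alcohol and 90 and 107 in co-treated libraries. By edgeR its log2 fold change was 0.36 (SE 0.22, unadjusted p = 0.12).

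FANCD2 had a log2 fold change of 0.59 (SE 0.17, unadjusted p = 0.00358, adjusted p = 0.722) in co-treated against alcohol libraries, and FANCI had 0.49 (SE 0.14, unadjusted p = 0.00475, adjusted p = 0.760). FANCD2 and FANCI were the 2 genes that stayed under an unadjusted p of 0.05 in this comparison in all 14 alternative fits. BRCA2 followed with 0.59 (SE 0.21, adjusted p = 0.857), BLM with 0.59 (SE 0.27, adjusted p = 0.896) and BRIP1 with 0.43 (SE 0.19, adjusted p = 0.888). For BRIP1 the co-treated libraries themselves were apart, at 6.79 and 4.67 FPKM, and the gene was no longer under this limit without replicate 1 of co-treated or without either alcohol library. BRCA2 was not under it without replicate 1 of alcohol or replicate 2 of co-treated, and BLM was under it in none of the fits that left out 1 library.

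Set beside these, XRCC2 had 0.48 (SE 0.22, unadjusted p = 0.0522), FANCA 0.46 (SE 0.22, unadjusted p = 0.0546) and EXO1 0.43 (SE 0.27, unadjusted p = 0.135) in co-treated against alcohol libraries. The summed counts of FANCB in co-treated libraries were 2.58 times those in alcohol after scaling to depth, with an exact 95% interval of 1.03 to 7.31 for counting error alone. The fitted log2 fold change of FANCB was 1.33 (SE 0.73, unadjusted p = 0.0916, adjusted p = 0.915), and it was 0.49 to 1.85 when each library was left out, with an unadjusted p under 0.05 in the fit without replicate 2 of co-treated alone. The median log2 fold change of the 39 genes was 0.16, with 29 above 0, and that of all genes tested was 0.0023. Leaving out replicate 1 of co-treated moved this median to 0.27 and leaving out replicate 2 moved it to 0.078. Both co-treated libraries lay above both alcohol libraries in CPM for 17 of the 39 genes and below them for 0, against 17.4% and 16.2% of all genes. By role, the median was 0.54 for the FANCD2-FANCI pair, 0.22 for the checkpoint kinases, 0.19 for the BRCA complex and mediators, 0.19 for break ends and resection, 0.10 for RPA, 0.087 for the paralog complexes with XRCC2, 0.083 for the Fanconi core and anchor and -0.051 for the joint molecule genes.

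Co-treated libraries were also compared with control, and this comparison shares its control libraries with the first and its co-treated libraries with the second. By edgeR 0 of the 39 genes passed an adjusted p of 0.05 here too, against a background of 0.362%, and DESeq2 and limma called 0. RAD50 was the 1 gene at an unadjusted p under 0.05, with a log2 fold change of 0.30 (SE 0.12, unadjusted p = 0.0273, adjusted p = 0.320), where 6.26% of all genes were higher and 6.37% lower at that limit. RAD50 shares exon sequence with TH2LCRR on the opposite strand and with AC116366.3 on its own. It did not pass this limit without replicate 2 of co-treated or without either control library, and DESeq2 put 0 of the 39 genes past it.

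For the 8 genes that stood lower with alcohol, the log2 fold changes of co-treated against control libraries were -0.07 for BRCA2, -0.072 for FANCI, 0.12 for FANCD2, -0.19 for FANCA, -0.23 for BLM, -0.28 for EXO1, -0.33 for XRCC2 and -0.49 for FANCB. Their standard errors ran from 0.14 for FANCI to 0.59 for FANCB. XRCC2 and EXO1 were below control in both co-treated libraries in CPM, and the other 6 overlapped with control. The median of the 39 genes was 0.0089, with 20 above 0 and 19 below. Both co-treated libraries were above control in CPM for 6 genes and below it for 4, against 21.6% and 21.7% of all genes.

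The stretch before a transcript start is shown for FANCD2, BRCA2 and BLM, which are 3 of the genes with their lowest 2 libraries in alcohol. Other genes shared this, among them XRCC2, EXO1, FANCA, FANCB and CHEK2, and their windows are not printed. The stretches were searched because E2F-type sites and CCAAT boxes are known from promoters of genes that follow the cell cycle. Each line gives the 250 bases before the start that the RefSeq promoter table of GRCh38.p14 lists for the gene, written 5′ to 3′ on the gene's own strand, which is the plus strand for all 3. Capitals mark a match on either strand to an E2F-type motif (TTCCCGC or TTGGCGC or TTCGCGC or TTGCCGC), to TTTGAA, known as the CHR element, or to CCAAT. The windows are chr3:10026187-10026436 for FANCD2, chr13:32315258-32315507 for BRCA2 and chr15:90717096-90717345 for BLM. For FANCD2 and BLM the listed start is the first base of the gene as given above, whereas for BRCA2 it lies further in, so that its window falls inside the span of the gene and not before its outermost start.
FANCD2: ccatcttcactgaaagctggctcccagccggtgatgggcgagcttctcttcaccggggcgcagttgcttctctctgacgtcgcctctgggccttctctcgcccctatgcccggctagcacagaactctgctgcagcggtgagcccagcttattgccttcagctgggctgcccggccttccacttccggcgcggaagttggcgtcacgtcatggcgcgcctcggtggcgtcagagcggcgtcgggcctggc
BRCA2: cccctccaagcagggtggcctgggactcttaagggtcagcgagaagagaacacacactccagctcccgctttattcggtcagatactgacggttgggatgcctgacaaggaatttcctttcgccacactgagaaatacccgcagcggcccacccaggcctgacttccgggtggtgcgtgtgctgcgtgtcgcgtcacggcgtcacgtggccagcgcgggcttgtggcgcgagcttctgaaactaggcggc
BLM: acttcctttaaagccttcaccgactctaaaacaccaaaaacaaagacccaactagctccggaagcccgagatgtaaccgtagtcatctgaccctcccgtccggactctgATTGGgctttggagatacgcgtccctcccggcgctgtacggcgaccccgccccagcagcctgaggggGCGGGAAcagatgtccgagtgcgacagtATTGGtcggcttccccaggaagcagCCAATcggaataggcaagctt
The BLM window held an E2F-type match, GCGGGAA, that began 74 bases before the start, and CCAAT boxes that began 141, 46 and 21 bases before it. No match to these letters lay in the windows printed for FANCD2 and BRCA2, and the stretch before the outermost start of BRCA2 was not searched. Of the 39 genes, 35 had a promoter in the table, and FANCI, NBN, RPA2 and RPA3 were not matched. An E2F-type match was found in 12 of the 35 (34.3%), against 20.2% of 11766 tested genes and 13.0% of all 27305 genes with a promoter of the same length. CCAAT was found in 16 of the 35 (45.7%), against 40.9% of tested genes, and TTTGAA in 4 (11.4%), against 12.3%. Of the 7 genes lower with alcohol that had a promoter here, BLM and FANCA held an E2F-type match. Such matches describe letters in the window and say nothing about binding.

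Other genes of the same pathways were described with a second list of 51 genes, such as further mediators, the Fanconi-associated proteins and the proteins that mark the chromatin of a break. All 51 were tested and 0 were called by edgeR, DESeq2 or limma in alcohol against control. At an unadjusted p under 0.05, 7 were lower and 1 was higher, with a median log2 fold change of -0.066, while 2 were lower without replicate 2 of control or replicate 2 of alcohol and 4 without replicate 1 of alcohol. DESeq2 put 3 lower and limma 4. The background in this comparison was 5.78% lower and 5.27% higher. In co-treated against alcohol libraries, 2 of the 51 were higher and 0 lower, with a median of 0.064, where 2.84% of all genes were higher. That count was 0 with DESeq2 and without replicate 2 of alcohol, 1 with limma and without either control library, 3 without replicate 1 of co-treated and 5 without replicate 2 of co-treated. The lower genes of the 51 were 5 without replicate 1 of co-treated, 3 with limma or without the expression filter, 2 with at least 10 counts required in each library and 1 without replicate 2 of alcohol.

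Because recombination runs in cycling cells, genes of DNA replication and mitosis were set beside the repair genes. Of 20 replication genes 9 were lower and 0 higher at an unadjusted p under 0.05 in alcohol against control. Their median log2 fold change was -0.36. Of 20 mitosis genes 16 were lower and 0 higher, with a median of -0.70. In the background 5.78% of all genes were lower and 5.27% higher. In the main edgeR fit 0 of either list passed the adjusted threshold. With at least 10 counts required in each library edgeR called 1 mitosis gene, and with the replicate block it also called 1. DESeq2 called 1 mitosis gene and put 10 past the unadjusted limit, and limma put 8. Of the replication genes DESeq2 put 5 past it and limma 7. The counts hang on single libraries. Without replicate 2 of control the replication genes gave 4 and the mitosis genes 3, without replicate 1 of alcohol they gave 13 and 7, without replicate 2 of alcohol the replication genes gave 2, and without replicate 1 of control edgeR called 11 mitosis genes at the adjusted threshold. In co-treated against alcohol libraries 4 replication and 11 mitosis genes were higher and 0 lower, with medians of 0.21 and 0.51. The background there was 2.84% higher and 2.71% lower. DESeq2 put 0 replication and 5 mitosis genes past this limit, limma 6 mitosis genes, and edgeR 2 replication genes without the expression filter. When each library was left out, the replication genes past it were 7 without replicate 1 of alcohol, 2 without either control library, 1 without replicate 2 of co-treated and 0 without replicate 2 of alcohol or replicate 1 of co-treated. The mitosis genes were 3 without replicate 1 of alcohol or replicate 1 of co-treated and 12 or 13 in the other fits of this kind.

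MKI67, a marker of proliferating cells, had 8.02 and 14.9 FPKM in control, 5.80 and 8.49 in alcohol and 12.4 and 9.03 in co-treated libraries. TOP2A, the topoisomerase of mitotic chromosomes, had 29.7 and 55.3, 24.2 and 31.5, and 50.9 and 38.6 FPKM in the same order, so for both genes control and alcohol libraries overlapped. PCNA, the sliding clamp of replication, had 58.9 and 63.8 FPKM in control, 48.5 and 42.5 in alcohol and 57.9 and 55.8 in co-treated libraries, with a log2 fold change in alcohol of -0.47 (SE 0.13, adjusted p = 0.190). Averaged over each list in log2 CPM, the 39 repair genes were at 4.56 and 4.63 in control, 4.45 and 4.31 in alcohol and 4.55 and 4.56 in co-treated libraries. The replication genes were at 5.26 and 5.26, 5.13 and 4.75, and 5.16 and 5.14, and the mitosis genes at 5.54 and 6.33, 5.10 and 5.48, and 5.91 and 5.60. Replicate 2 of control was the highest library for repair and mitosis genes and replicate 2 of alcohol the lowest for repair and replication genes. The part of the replication and mitosis genes, and of the smooth muscle markers that were also lower in replicate 2 of alcohol, in the values of the repair genes was not tested.

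**Figure D4:**
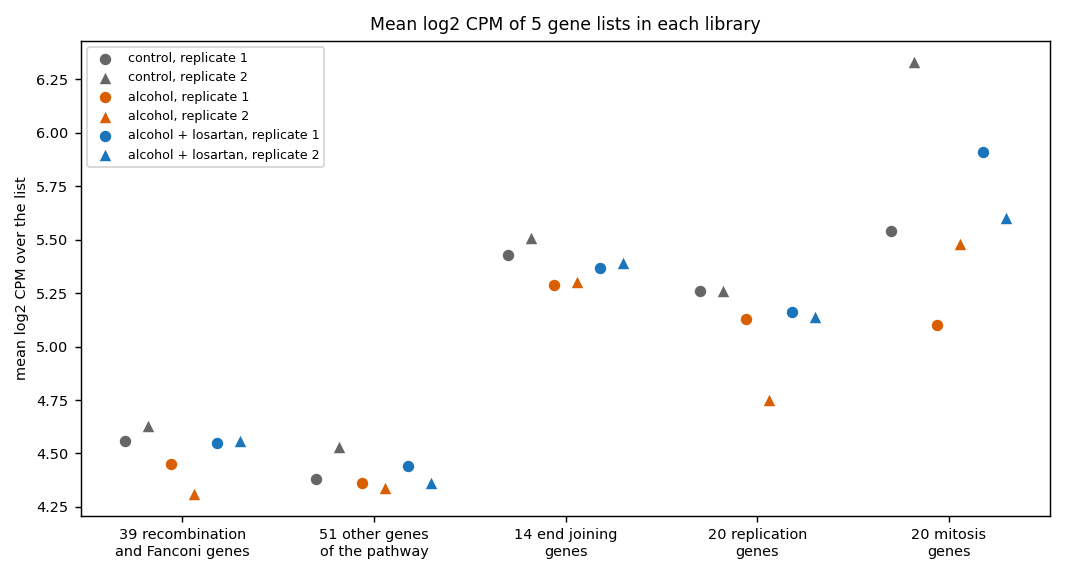
Mean log2 CPM of each gene list in each library, with circles for replicate 1 and triangles for replicate 2 (grey control, orange alcohol, blue alcohol with losartan). The repair genes run from 4.31 to 4.63 and the mitosis genes from 5.10 to 6.33, with replicate 2 of control at the top of both.

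Annotation, position and length of the 39 genes were also described. In the gene ontology column of the deposited table, 10 of the 45 genes annotated to recombinational repair were among them. So were 9 of the 40 annotated to meiosis I, and 3 of the 39 carried no process term at all. Since the list was chosen for these repair pathways, such terms follow from the choice. The share of all genes on each chromosome was not taken. Chromosome 17 held 7 of them (BRCA1, BRIP1, RAD51C, RAD51D, RPA1, TOP3A and EME1) and chromosome 11 held 5 (ATM, CHEK1, MRE11A, MUS81 and FANCF). The authors' transcript length varied by more than 1.1-fold between libraries for 6 genes, up to 1.40-fold for RAD52, whose FPKM of 9.67 and 4.91 in control stood for 119 and 75 counts. For 15 of the 39 genes an expected count was not whole in at least 1 library, which marks reads that the authors' counting shared out.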

How the data were processed

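RNA of 6 libraries of hiPSC-CMs was sequenced, with groups read from the treatment label. The values deposited by the authors are an expected count (an estimated number of reads, not whole in 33.9% of cases), the FPKM made from it by scaling to transcript length and library size, and the length itself in bases. The submitters' processing notes name HISAT2 2.0.4, Bowtie2 2.2.5, RSEM 1.2.12 and hg38. Genes absent from a library's file were set to 0.

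Expected counts were rounded and tested with edgeR's quasi-likelihood F test (two-sided, TMM, filterByExpr, all 6 libraries in 1 fit, group as the 1 term), with Benjamini-Hochberg adjustment over 14926 genes and a threshold of 0.05. Unadjusted p under 0.05 is given as a description. List means used log2 CPM with a prior count of 2. With 2 libraries a group, the smallest p an exact permutation of the labels allows is 0.333, so that test was not used. The script was tested on simulated data.

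Alternatives were DESeq2, limma on log2(FPKM + 1) and on log2(FPKM + 0.1), DESeq2-type size factors, a fit without the filter, a minimum of 10 counts per library, a block for the replicate number, fits restricted to the groups compared, and fits without each library. The 39 genes and the other lists were chosen with earlier results of these data known, so lists are described by counts and medians without a test. Genes named with every library's value were those with an unadjusted p under 0.05 in any comparison and BRCA1, BRCA2, PALB2, RAD51C, MRE11A, RAD50, RPA1, SHFM1, BLM, FANCA, FANCD2, FANCI, ATM, ATR, CHEK1 and CHEK2, and of the other lists MKI67, TOP2A, PCNA, CDKN1A and genes called. A further gene of this rule is not reported here. RAD52 was named for its length after its values were seen. The fold change of FANCB is also given from summed counts, with an exact binomial interval at 95%. Gene positions and promoters are from RefSeq for GRCh38.p14, the assembly that hg38 denotes, and overlaps of exons from GENCODE 29.

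R 4.3.3, edgeR 4.0.16, limma 3.58.1, DESeq2 1.42.0 and Python 3.11.15 with pandas 2.3.3 and scipy 1.17.1 were used.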

Additional observations from a re-analysis of the deposited data

How the results depend on the processing

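In all 14 alternatives 0 of the 39 repair genes were called in any comparison. The count at an unadjusted p under 0.05 moved more. In alcohol against control 8 genes were lower, and there were 5 with DESeq2, 5 and 5 with limma on log2(FPKM + 1) and log2(FPKM + 0.1), and 2 to 8 when each library was left out, with 0 to 1 higher and a median log2 fold change of -0.22 to -0.065. In co-treated against alcohol libraries 5 were higher, and there were 3 with DESeq2, 3 and 3 with limma and 4 to 6 when each library was left out, with 0 to 1 lower and a median of 0.078 to 0.27. In co-treated against control libraries 1 was higher, and there were 0 with DESeq2 and 0 to 3 when each library was left out, with 0 to 1 lower. The median there was 0.0089, and it was 0.047 and 0.058 with limma and -0.011 to 0.053 when each library was left out. The cause of these shifts was not tested. A fit that leaves 1 library in a group assumes that it varies like the others.

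Whether the replicate numbers pair the libraries could not be settled. Deviations of same-numbered libraries from their group means correlated at 0.114, -0.0162 and 0.0412. With 2 libraries a group, such values cannot show that pairing was absent. With the replicate block 8 genes were lower in alcohol against control, 7 were higher in co-treated against alcohol and 1 was higher in co-treated against control, with medians of -0.14, 0.16 and 0.015.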

Other observations

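Non-homologous end joining repairs double-strand breaks without a template and does not need a sister chromatid. The list held 14 genes, with those of polymerase theta end joining. At an unadjusted p under 0.05, 3 were lower and 1 was higher in alcohol against control. The background was 5.78% lower and 5.27% higher. The median log2 fold change of the 14 genes was -0.20, and 0 were called by edgeR, DESeq2 or limma. As higher, DESeq2 put 0 past the unadjusted limit and limma 1. Limma put 1 past the unadjusted limit as lower, and so did the fit without replicate 2 of control. In co-treated against alcohol libraries 1 was higher and 0 lower, with a median of 0.081, where 2.84% of all genes were higher and 2.71% lower.

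Genes induced by p53, the factor that ATM and CHEK2 activate after DNA damage, were mostly at or below their control levels. Of 16 such genes 6 were lower and 1 was higher at an unadjusted p under 0.05 in alcohol against control. Their median log2 fold change was -0.26, and the background was 5.78% lower and 5.27% higher. Without replicate 2 of control 1 was lower, without replicate 1 of alcohol 1 was, without replicate 2 of alcohol 3 were, and limma gave 2. CDKN1A, the p53 target that halts the cell cycle, had 99.3 and 114.2 FPKM in control, 78.7 and 71.4 in alcohol and 62.7 and 65.6 in co-treated libraries, so the groups did not overlap. Its log2 fold change was -0.55 (SE 0.12, adjusted p = 0.121) in alcohol and -0.78 (SE 0.12, adjusted p = 0.0203) in co-treated libraries against control by edgeR, and in the latter it was the 1 gene of the list called, where 0.362% of all genes were. The call in co-treated libraries was lost without replicate 2 of control (adjusted p = 0.128), without replicate 1 of co-treated (adjusted p = 0.157), without replicate 2 of co-treated (adjusted p = 0.286), without the expression filter (adjusted p = 0.0530) and with limma (adjusted p = 0.103 and 0.123), and DESeq2 called CDKN1A in alcohol against control as well (adjusted p = 0.0396).

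ACTA2 was named from the list of smooth muscle markers. It had 506.9 and 580.2 FPKM in control, 336.8 and 203.1 in alcohol and 247.7 and 224.0 in co-treated libraries. Bulk libraries do not show which cells these reads came from. The log2 fold change of ACTA2 by edgeR was -1.04 (SE 0.20, adjusted p = 0.0797) in alcohol against control. In co-treated libraries against control it was -1.25 (SE 0.20, adjusted p = 0.0203), a comparison in which 0.362% of all genes were called. The call in co-treated libraries was lost without either co-treated library (adjusted p = 0.157 and 0.349), without the expression filter (adjusted p = 0.0530) and with limma (adjusted p = 0.117 and 0.129). In alcohol against control ACTA2 passed the threshold without replicate 1 of control (adjusted p = 0.0370), without replicate 1 of alcohol (adjusted p = 0.000372), with at least 10 counts required in each library (adjusted p = 0.0488) and with the replicate block (adjusted p = 0.0297).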
